A study of Mus musculus with 8 samples.

Results

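Tbx19, Pax7, Pitx1, Lhx3, Lhx4 and Neurod1 encode the transcription factors best known for building the pituitary cells that make POMC, the precursor of ACTH and of the melanotropins. These 6 genes were chosen by name from the 48526 genes of the deposited tables, each row being joined between the FPKM and the count table by its Ensembl identifier. All 6 were found, 4 of them had enough counts to be tested, and 2, Neurod1 and Lhx4, did not. RNA had been sequenced from the pituitary neuro-intermediate lobe of C57B6 mice, in 8 libraries of 5 pooled lobes each. The animals were males, 3 months old.

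The labels gave 4 groups of 2 libraries. WT mice carried no transgene. ACreb3l2 and AXBP1 mice each carried 1 transgene for an acidic dominant negative protein, which pairs with the bZIP factor Creb3l2 or XBP1 and holds it off DNA. ACreb3l2/AXBP1 mice carried both. Both transgenes were driven by the rat POMC promoter, which is active in POMC cells, and the study describes its results as those of a single line per transgene. Each library was a pool, so the p-values below measure the spread between pools and not between animals. The groups were made to show what melanotropes lose when Creb3l2, XBP1 or the pair of them is held inactive.

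Melanotropes, the POMC cells of the intermediate lobe, arise from progenitors of Rathke's pouch in an ordered way. The LIM homeodomain factors Lhx3 and Lhx4 allow the pouch to grow and its cells to commit, and the homeodomain factor Pitx1 acts in nearly all pituitary lineages and binds the Pomc promoter. The T-box factor Tbx19, also called Tpit, then drives terminal differentiation of POMC cells, and the paired factor Pax7 opens enhancers that set melanotropes apart from the corticotropes of the anterior lobe. Neurod1, a basic helix-loop-helix factor, acts on Pomc in fetal corticotropes and is not a factor of mature melanotropes.

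Tbx19 and Lhx3 were the members that fell in the ACreb3l2/AXBP1 lobes, and their promoters are shown for that reason. RefSeq windows, from 250 bases before to 50 after a transcript start on GRCm38.p6, were held for 5 of the 6 members. Both sequences are read 5′ to 3′ on the minus strand and stop just before the transcribed part, and capitals mark the searched motifs. The Tbx19 sequence is chr1:165160774-165161023 and that of Lhx3 is chr2:26208290-26208499, which precedes the first of 2 annotated Lhx3 starts.
Tbx19: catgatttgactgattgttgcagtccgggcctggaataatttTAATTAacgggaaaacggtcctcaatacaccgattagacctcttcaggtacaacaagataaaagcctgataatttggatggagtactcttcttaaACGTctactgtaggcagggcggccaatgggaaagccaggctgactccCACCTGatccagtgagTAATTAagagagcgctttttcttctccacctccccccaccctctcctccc
Lhx3: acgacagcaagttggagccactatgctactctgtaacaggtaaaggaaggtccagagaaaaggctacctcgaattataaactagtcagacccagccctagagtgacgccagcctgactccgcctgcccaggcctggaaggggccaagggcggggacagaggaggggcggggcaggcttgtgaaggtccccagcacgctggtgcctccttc

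The motifs were searched on both strands. The LIM homeodomain motif TAATTA, which was present in 5.29% of 32851 promoter windows of the same length, occurred 2 times before Tbx19. The bZIP core ACGT, present in 30.9% of windows, occurred 1 time, at position -113 from the start. The E-box CANNTG, present in 72.3% of windows, occurred at 2 places in the whole window, of which 1 lies after the start and is not printed. None of the searched motifs was found in the printed Lhx3 sequence, and the window of its other start held an E-box and CCACG. The other motifs were the CCACG part of the ER stress element (32.8% of windows), TGACGTGG, the unfolded protein response element that contains the bZIP core (0.676%), the bicoid-type motif TAATCC (7.06%) and the T-box motif TCACACC (3.98%). None of these 4 was found before Tbx19. A match is only a run of letters, and the windows hold no enhancers.

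By FPKM, a level that takes account of gene length and library size, the 4 tested members kept a steep order of levels. In WT the mean level was 214 FPKM ± 10.2 (SD, n = 2) for Tbx19, 66.0 ± 8.40 (SD, n = 2) for Pax7, 50.0 ± 3.35 (SD, n = 2) for Lhx3 and 21.5 ± 0.289 (SD, n = 2) for Pitx1. The order Tbx19, Pax7, Lhx3, Pitx1 was the same in 8 of 8 libraries, and no neighbours among them overlapped within a group. Tbx19 in WT lay at the 98.9th percentile of the genes with any signal, Pax7 at the 95.5th, Lhx3 at the 93.8th and Pitx1 at the 84.2nd. The terminal selector of the lineage thus had the highest level of the 6.

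Neurod1 and Lhx4 lay far below the other 4. Neurod1 had 0.0550 FPKM ± 0.0182 (SD, n = 2) in WT and Lhx4 0.0489 ± 0.0297 (SD, n = 2), at the 17.1st and 15.8th percentiles. Neurod1 was the higher of these 2 in every library but WT replicate 2, and their WT libraries overlapped, so they were not told apart in that group.

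**Figure D1:**
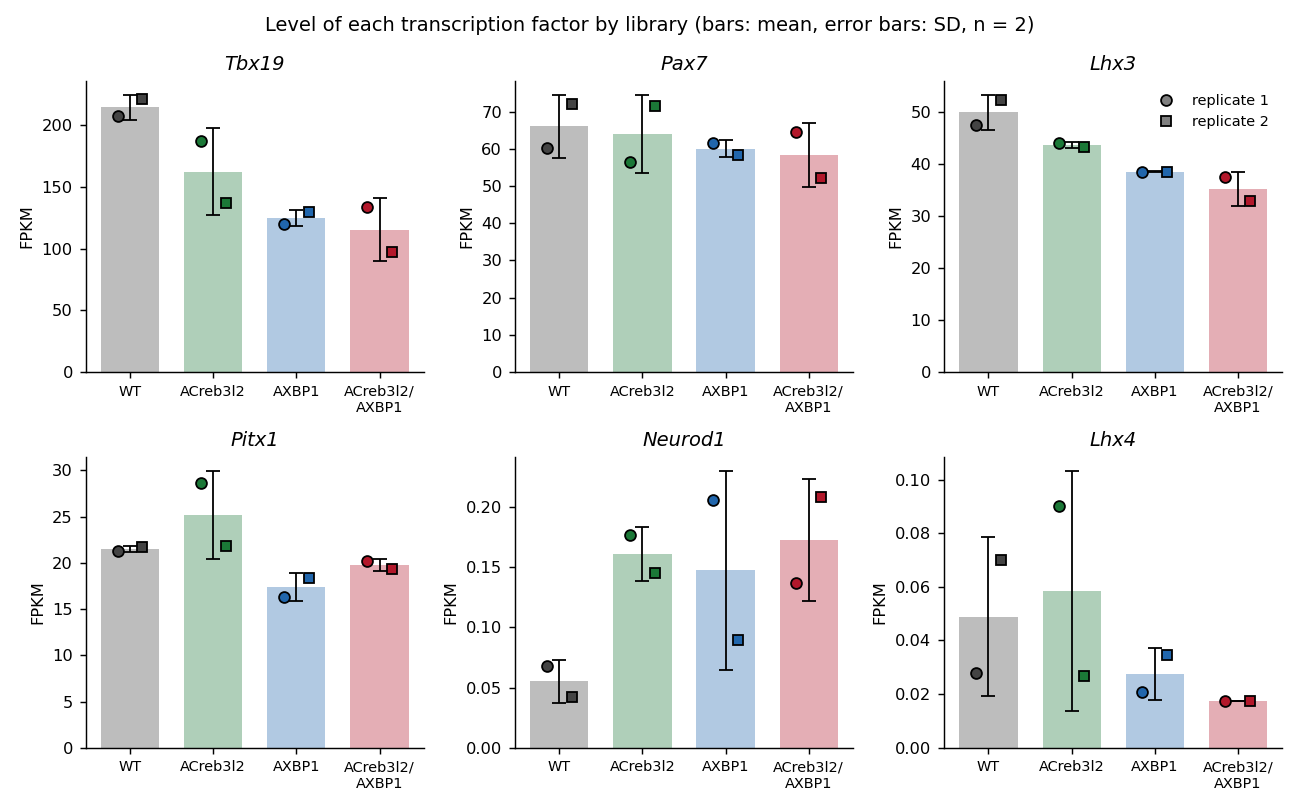
Level of each factor (FPKM, linear axis from 0) in the 4 groups, with circles for replicate 1, squares for replicate 2, bars for the mean and error bars for the SD (n = 2). Tbx19 and Lhx3 lie below both WT libraries in all 6 transgenic libraries, whereas the Pax7 libraries of every transgenic group overlap those of WT. How many of all genes have such a gap in all 6 was not counted.

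Tbx19 (ENSMUSG00000026572, chr1:165137855-165160773 of mm10, minus strand, protein coding) had the largest log2 difference from WT of the 4 tested members. Its level was 207 and 222 FPKM for WT replicates 1 and 2, 188 and 137 for the libraries labelled ACreb3l2, 120 and 129 for AXBP1, and 134 and 97.2 for the double transgenic lobes. All 6 transgenic libraries were below both WT libraries. For a single group such a gap was common. On normalized counts pairs of transgenic libraries lay below both WT libraries for 23.2% (ACreb3l2), 23.8% (AXBP1) and 28.7% (both transgenes) of tested genes. They lay above both for 22.3%, 22.3% and 29.6%. The share of genes with all 6 transgenic libraries below both WT libraries was not counted. In FPKM the ACreb3l2 libraries of Tbx19 were above those of the other transgenic groups. On the scale of normalized counts, which correct for depth and composition, the WT libraries had 21306 and 23073, ACreb3l2 18294 and 14649, AXBP1 13827 and 14976, and ACreb3l2/AXBP1 14454 and 9590. On this scale ACreb3l2 replicate 2 lay between the AXBP1 libraries.

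Tbx19 fell by 0.88 on the log2 scale in ACreb3l2/AXBP1 against WT (SE 0.185, 95% interval -1.31 to -0.46, edgeR adjusted p = 0.0245), a level 1.85-fold lower. The single transgenes gave log2 differences that did not pass, -0.62 for AXBP1 (SE 0.185, edgeR adjusted p = 0.474) and -0.43 for ACreb3l2 (SE 0.184, edgeR adjusted p = 0.288). Fewer melanotropes in a pool and less Tbx19 RNA per melanotrope cannot be told apart in such bulk samples. In the comparison with both transgenes 10.1% of 15580 tested genes were called, 6.99% as lower and 3.06% as higher. In the ACreb3l2 comparison 3.04% were called, and in the AXBP1 comparison 0% (edgeR 0 genes, DESeq2 79, and 1554 if the edgeR p is left unadjusted at 0.05). DESeq2 did call Tbx19 in AXBP1 (-0.63, DESeq2 adjusted p = 0.0185), as did edgeR without the filter on low counts (adjusted p = 1.35e-07). The unfiltered edgeR fit also called it in ACreb3l2 (-0.43, edgeR adjusted p = 0.00103). That fit called 628 of 29547 genes in AXBP1 and 1455 in ACreb3l2. Its SE for Tbx19 was 0.101 in both comparisons, below the 0.185 and 0.184 of the filtered fit.

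The call of Tbx19 in the double transgenic lobes rested on which libraries were used. Without ACreb3l2/AXBP1 replicate 2, the library with the lowest Tbx19, the log2 difference was -0.63 (edgeR adjusted p = 0.0828), and without replicate 1 it was -1.21 (edgeR adjusted p = 0.00381). Leaving out a WT library gave -0.94 (edgeR adjusted p = 0.0515, without replicate 1) and -0.83 (0.146, without replicate 2). Over 19 alternative settings the value stayed below 0, and the adjusted p was under 0.05 in 15 of them.

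Lhx3 (ENSMUSG00000026934, chr2:26200212-26208289, minus strand) was the other member that fell. Its level was 47.6 and 52.4 FPKM for WT, 44.1 and 43.3 for ACreb3l2, 38.6 and 38.4 for AXBP1, and 37.5 and 32.9 for ACreb3l2/AXBP1. Its normalized counts were 3824 and 4401 for WT, 3422 and 3623 for ACreb3l2, 3586 and 3526 for AXBP1, and 3293 and 2596 for ACreb3l2/AXBP1. As for Tbx19, all 6 transgenic libraries were below both WT libraries on both scales. The share of all tested genes with such a gap in all 6 was not counted.

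Lhx3 fell by 0.48 on the log2 scale in ACreb3l2/AXBP1 against WT (SE 0.116, 95% interval -0.74 to -0.22, edgeR adjusted p = 0.0314), to 0.716 of the WT level. The log2 difference was -0.22 in ACreb3l2 (edgeR adjusted p = 0.371) and -0.21 in AXBP1 (edgeR adjusted p = 0.553). The Lhx3 call held under 11 of 19 alternative settings, fewer than that of Tbx19, and was lost with a replicate block, among others. It was lost without ACreb3l2/AXBP1 replicate 2 (-0.33, edgeR adjusted p = 0.210), without WT replicate 2 (-0.38, 0.175) and without either AXBP1 replicate (0.0608 and 0.0613), as the plot of left-out libraries shows. An antisense gene, Gm27196, shares 188 bases, 6.17% of the exonic bases of Lhx3, and had 140 to 174 counts per library against 2928 to 4041 for Lhx3. Whether the counting used strand is not given in the sources used here.

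**Figure D2:**
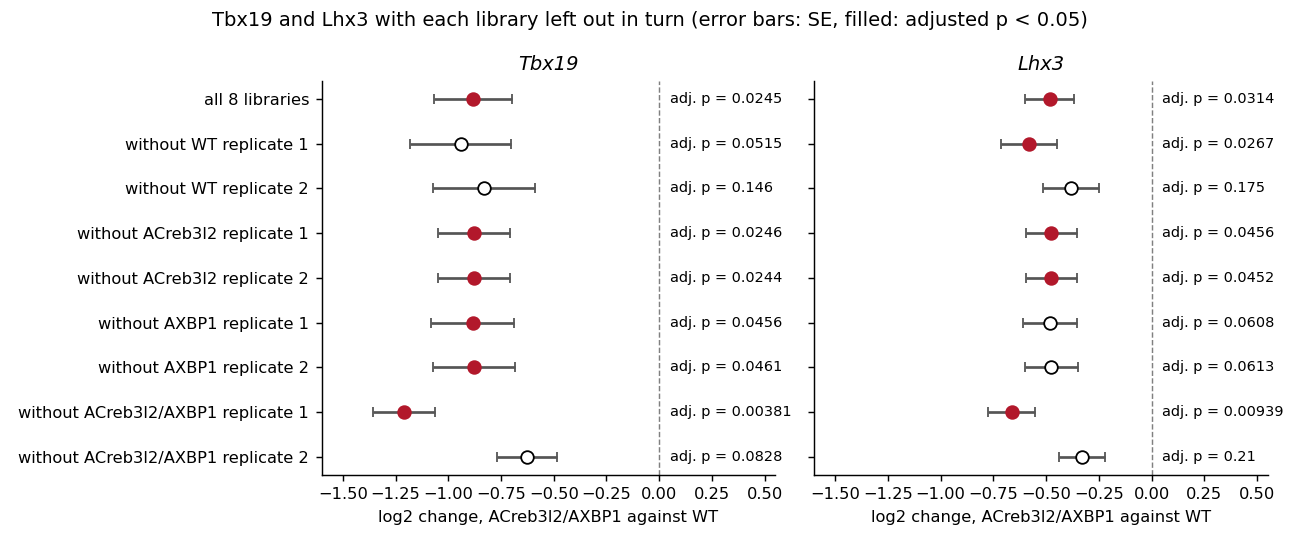
Log2 change of Tbx19 and Lhx3 in ACreb3l2/AXBP1 against WT with all 8 libraries and with each left out in turn (points with SE, filled where the edgeR adjusted p is under 0.05). Every point lies below 0, from -1.21 to -0.63 for Tbx19 and from -0.66 to -0.33 for Lhx3, but the call is lost without ACreb3l2/AXBP1 replicate 2 in both genes.

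Pax7 (ENSMUSG00000028736, chr4:139737062-139833528, minus strand), the selector of melanotrope over corticotrope identity, had no called difference in any comparison. Its level was 60.1 and 71.9 FPKM for WT, 56.4 and 71.4 for ACreb3l2, 61.7 and 58.4 for AXBP1, and 64.5 and 52.2 for ACreb3l2/AXBP1. The libraries of each transgenic group overlapped those of WT. The log2 difference from WT was -0.026 in ACreb3l2 (edgeR adjusted p = 0.964), 0.074 for AXBP1 (0.902) and -0.075 for ACreb3l2/AXBP1 (0.822). The 95% interval of the last, -0.51 to 0.36, still allowed a moderate change in either direction. Each of these 3 values changed sign under at least 1 alternative scaling or left-out library, so no direction can be given for Pax7.

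Pitx1 (ENSMUSG00000021506, chr13:55825051-55836192, minus strand), the factor shared by most pituitary lineages, was not called against WT, and its 1 call between transgenic groups, made without the filter on low counts, is given with those comparisons. Its level was 21.3 and 21.7 FPKM for WT, 28.6 and 21.9 for ACreb3l2, 16.3 and 18.4 for AXBP1, and 20.2 and 19.3 for ACreb3l2/AXBP1. On FPKM the ACreb3l2 libraries were both above WT and those of the other 2 transgenic groups below, whereas on normalized counts only AXBP1 (1619 and 1779, against 1842 and 1991 in WT) was clear of WT. The log2 difference from WT was 0.20 in ACreb3l2 (edgeR adjusted p = 0.437), -0.17 in AXBP1 (0.610) and -0.12 with both transgenes (0.511). With library size alone as the scaling the last became 0.036. Exons of Pitx1 share 165 bases with the antisense gene Gm47071 and 108 with the lincRNA Gm28760.

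**Figure D3:**
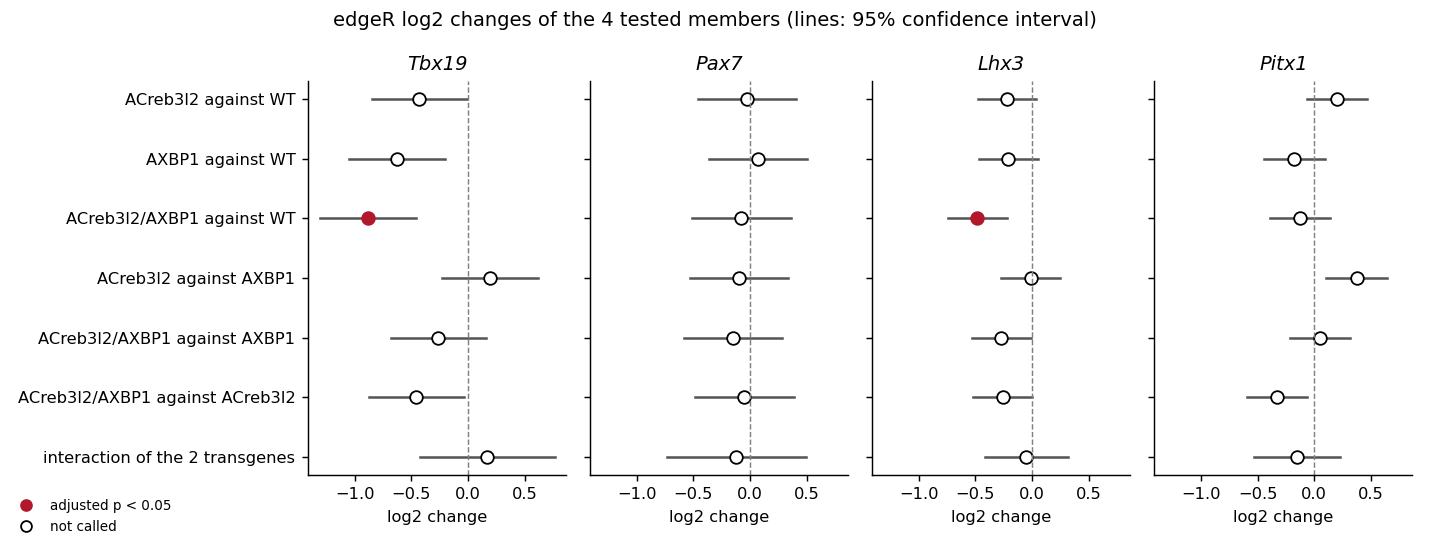
edgeR log2 changes of the 4 tested members in the 6 pairwise comparisons and in the interaction (points, with 95% intervals as lines, filled where the adjusted p is under 0.05). Only Tbx19 (-0.88) and Lhx3 (-0.48) in ACreb3l2/AXBP1 against WT are filled, and several intervals that exclude 0, such as that of Pitx1 between ACreb3l2 and AXBP1, did not pass adjustment over all genes.

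Neurod1 (ENSMUSG00000034701, chr2:79452521-79456751, minus strand) had raw counts of 7 and 4 for WT, 19 and 11 for ACreb3l2, 18 and 7 for AXBP1, and 15 and 19 for ACreb3l2/AXBP1. It had not passed the filter, a mean of more than 20 normalized counts. ACreb3l2 and ACreb3l2/AXBP1 libraries were above both WT libraries, and AXBP1 replicate 2 equalled WT replicate 1 in raw counts. In an edgeR fit without the filter the log2 difference from WT was 1.36 in ACreb3l2 (edgeR adjusted p = 0.175), 1.20 in AXBP1 (0.451) and 1.47 in ACreb3l2/AXBP1 (0.0584), none of which passed. Neurod1 lies within Cerkl, which is annotated on the same strand, shares 201 of its exonic bases (7.37%) and had 48 to 99 counts per library. Reads in these bases cannot be assigned to one or the other, so the Neurod1 counts are uncertain.

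Lhx4 (ENSMUSG00000026468, chr1:155698031-155751684, minus strand), the partner of Lhx3 in the fetal pouch, had raw counts of 6 and 5 for WT, 9 and 5 for ACreb3l2, 6 and 7 for AXBP1, and 4 and 4 for ACreb3l2/AXBP1. Both ACreb3l2/AXBP1 libraries were below the other 6. Without the filter the log2 difference of ACreb3l2/AXBP1 from WT was -0.58 (SE 0.800, edgeR adjusted p = 0.768). A difference of this size was not detectable at this depth.

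Between the transgenic groups the edgeR fit with the filter on low counts called no member. The background was 0.719% of tested genes between ACreb3l2 and AXBP1, 0.623% between ACreb3l2/AXBP1 and AXBP1, and 0% between ACreb3l2/AXBP1 and ACreb3l2, where edgeR called 0 genes, DESeq2 41, and 1112 had an unadjusted edgeR p below 0.05. Tbx19 was lower in ACreb3l2/AXBP1 than in ACreb3l2 by a log2 difference of -0.45 (95% interval -0.88 to -0.03, edgeR adjusted p = 0.688) and than in AXBP1 by -0.26 (-0.68 to 0.16, 0.643). Lhx3 differed by -0.26 and -0.27 in the same comparisons (edgeR adjusted p = 0.688 and 0.423). Pitx1 was 0.37 higher on the log2 scale in ACreb3l2 than in AXBP1 (95% interval 0.11 to 0.64, edgeR adjusted p = 0.281). These differences did not pass with the filter. Without it edgeR called Tbx19 in ACreb3l2/AXBP1 against ACreb3l2 (-0.46, edgeR adjusted p = 0.000621) and Pitx1 in ACreb3l2 against AXBP1 (0.38, edgeR adjusted p = 0.0240). The fit without the filter called 513 and 730 of 29547 genes in these comparisons, where the filtered fit called 0% and 0.719%.

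The interaction asked whether the effect of both transgenes differed from the sum of the log2 effects of each. It was 0.17 for Tbx19 (95% interval -0.43 to 0.76), -0.049 for Lhx3 (-0.42 to 0.32), -0.15 for Pitx1 (-0.53 to 0.23) and -0.12 for Pax7 (-0.74 to 0.49). All 4 had an edgeR adjusted p of 1.00. Of all tested genes 0% were called for the interaction by edgeR, DESeq2 called 4 genes, and 386 had an unadjusted edgeR p below 0.05. The intervals are too wide to tell a sum from a larger or smaller joint effect.

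Within a library, the ratio of Tbx19 to another member does not depend on the scaling of that library. The ratio of Tbx19 to Pax7 in FPKM was 3.45 and 3.08 for WT, 3.32 and 1.92 for ACreb3l2, 1.95 and 2.22 for AXBP1, and 2.07 and 1.86 for ACreb3l2/AXBP1. Only ACreb3l2 replicate 1 reached the WT range. Against Pitx1 the ratio was 9.73 and 10.2 in WT and between 5.03 and 7.36 in all 6 transgenic libraries, without overlap. In ACreb3l2 Pitx1 itself was at 28.6 and 21.9 FPKM, against 21.3 and 21.7 in WT, a difference that was not called. How many gene pairs have such a gap was not counted. Against Lhx3 the ratio was 4.35 and 4.23 in WT, 4.26 and 3.17 in ACreb3l2, and between 2.95 and 3.56 in the other 4 libraries. The ratios are given as values and were not tested.

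**Figure D4:**
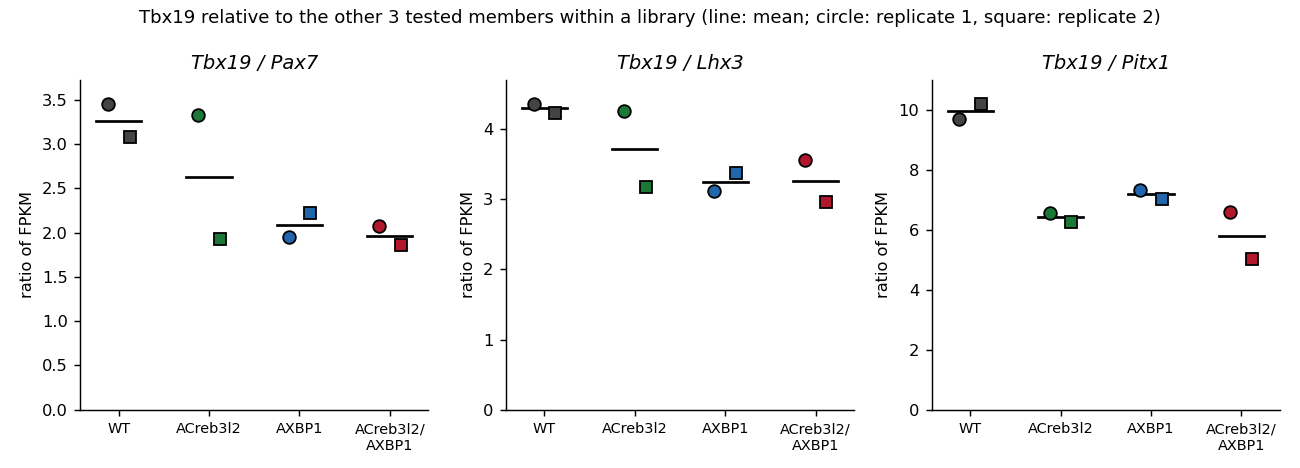
Ratio of the Tbx19 level to that of Pax7, Lhx3 and Pitx1 within each library (FPKM, linear axes from 0; circles replicate 1, squares replicate 2, lines group means). The ratio to Pitx1 is 9.73 and 10.2 in WT and at most 7.36 in the transgenic libraries, while ACreb3l2 replicate 1 reaches WT in the ratios to Pax7 and Lhx3.

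The cells in the pools were examined beside these results. Of 7 melanotrope markers, which include Tbx19 and Pax7, none was at 0. Their summed level, mostly Pomc, was 113331 to 169191 CPM (counts scaled to a common library total) in WT and 67605 to 92094 in ACreb3l2/AXBP1. In that group 7 of 7 had a log2 difference below 0 against WT, with a median of -0.33, and Tbx19 was the 1 called. Of 10 corticotrope and other anterior lobe markers none was at 0 either. Their sum, mostly Gh and Prl, was 4623 to 7016 CPM in WT, 3669 to 4775 in ACreb3l2, 2382 to 2428 in AXBP1 and 3096 to 6255 in ACreb3l2/AXBP1. In ACreb3l2 6 of the 10 lay above 0 against WT with a median log2 difference of 0.21, and none was called. The highest was the corticotrope receptor Avpr1b at 1.23 (edgeR adjusted p = 0.425) and the lowest Gh at -0.59 (0.557). In AXBP1 6 of the 10 lay below 0, with a median of -0.32, and none was called. In ACreb3l2/AXBP1 6 of the 10 lay above 0, with a median of 0.09, and none was called. Avpr1b had 10.9 to 90.2 normalized counts per library. The 8 pituicyte and astroglial markers summed to 1252 to 1555 CPM in WT and 1533 to 1811 in ACreb3l2/AXBP1, so the label of melanotropes describes a whole lobe. The part of these cell types in the results for Tbx19 and Lhx3 was not tested. Library totals ran from 28256086 to 37988912 counts. The libraries labelled ACreb3l2 had 27174 and 26738 normalized counts of Creb3l2 against 28642 and 28156 in WT. Those labelled AXBP1 had 12431 and 13831 of Xbp1 against 11860 and 13417. Per the study's methods each transgene holds coding sequence of its factor from the leucine zipper on. The study chose lines with more transgene than endogenous mRNA. Whether transgene reads are among these counts was not tested. These counts therefore do not check the labels, and every direction is one between libraries labelled so.

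Among 12 POMC and melanotrope genes that act downstream of the factors or beside them, 3 fell, 0 rose and 9 did not pass in ACreb3l2/AXBP1 against WT, where 6.99% of all tested genes were called lower and 3.06% higher. Their median log2 difference was -0.45, beside 0.01 for all tested genes, and 11 of 12 lay below 0. Those that fell were Creb3l2 (-0.69, edgeR adjusted p = 0.0428), Pam, the enzyme that amidates peptides (-0.57, 0.0268), and the granin Scg2 (-0.57, 0.0253). The ACreb3l2 transgene holds Creb3l2 coding sequence from the leucine zipper on, so Creb3l2 counts may mix transgene and endogenous RNA. In AXBP1 mice, which lack this transgene, Creb3l2 had 20806 mean normalized counts, beside 28399 in WT and 17600 in ACreb3l2/AXBP1. Scg2 had 1116 and 1118 FPKM in WT and 783 and 697 in ACreb3l2/AXBP1. Pomc itself had 97375 and 141231 FPKM for WT, 112357 and 94516 for ACreb3l2, 77836 and 93219 for AXBP1, and 71908 and 59960 for ACreb3l2/AXBP1. Both double transgenic libraries were below both WT libraries, but the log2 difference of -0.84 did not pass (SE 0.253, edgeR adjusted p = 0.0614). Chga, which like Pomc and Scg2 is among the most abundant of the list, differed by -0.07 (0.885). None of the 12 was called in ACreb3l2 or in AXBP1.

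The 20 regulators known to act with the members in POMC cells were all tested. In ACreb3l2/AXBP1 against WT 2 rose, 1 fell and 17 did not pass, with a median of -0.06. These 3 of 20 stand beside 10.1% called of all tested genes, a share near the background. The repressor Rest rose by 0.51 on the log2 scale (edgeR adjusted p = 0.0190) and the glucocorticoid receptor Nr3c1, which mediates feedback on Pomc, by 0.46 (0.0488). Stat3, the factor downstream of LIF and other cytokines that stimulate Pomc, fell by 0.45 (0.0129), from 8471 and 7887 normalized counts in WT to 6232 and 5702. Among the most abundant in WT by FPKM were Nr4a1 at 158 and Nr4a2 at 56.5. Nr4a1 and Nr4a2 are orphan receptors induced by CRH signalling, and the normalized counts of Nr4a1 were 17410 and 11737 for WT, 5416 and 4624 for AXBP1, and 11096 and 7582 for ACreb3l2/AXBP1. Its replicates lay far apart in WT and close together in AXBP1, where it had the lowest value of the list against WT, a log2 difference of -1.54 that did not pass (edgeR adjusted p = 0.474). In ACreb3l2/AXBP1 Nr4a1 differed by -0.64 (edgeR adjusted p = 0.290) and Nr4a2 by -0.42 (0.602). In ACreb3l2 and in AXBP1 none of the 20 was called.

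Of 15 progenitor and early pituitary regulators 12 were tested, and in ACreb3l2/AXBP1 against WT 2 rose, 0 fell and 10 did not pass, beside 3.06% of all tested genes called higher. All 12 lay above 0, with a median of 0.19 beside 0.01 for all tested genes. Against WT 11 of 12 lay above 0 in ACreb3l2 (median 0.17) and 10 of 12 in AXBP1 (0.18). Such counts of small differences depend on the scaling. In ACreb3l2/AXBP1 against WT 7 of 7 endothelial markers (median 0.56) and 8 of 8 pituicyte and astroglial markers (0.19) also lay above 0. So did 7 of 8 fibroblast and pericyte markers (0.31). Sox9 is counted both among the pituicyte markers and in the list of 12. The 6 progenitor markers, in WT mostly Krt8, summed to 332 to 360 CPM in WT and to at most 294 in ACreb3l2/AXBP1. Krt8 went from 6936 to 3927 mean normalized counts, and of the 4 progenitor markers tested 2 lay above 0 and 2 below. The part of these cell types in the values of this list was not tested. Those that rose were Sox2, which marks pituitary stem cells (0.37, edgeR adjusted p = 0.0354), and the receptor Notch2 (0.37, 0.0322). Sox2 had 2753 and 2520 normalized counts in WT and 3150 and 3670 in ACreb3l2/AXBP1, without overlap. Notch2 was also called in ACreb3l2 (0.42, 0.0352). Six6, among the most abundant of the list with 32.9 FPKM in WT, differed by 0.07 (edgeR adjusted p = 0.686). The remaining 3 had too few counts to be tested.

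In each of 3 other lists, with 4 to 6 genes tested, 1 gene was called, which says little beside the 10.1% called of all tested genes. Among 8 regulators of the anterior lobe lineages 6 were tested and 1 rose in ACreb3l2/AXBP1 against WT, the estrogen receptor Esr1 (0.64, edgeR adjusted p = 0.0430), with 1537 and 1170 normalized counts in WT and 1796 and 2432 in ACreb3l2/AXBP1. Zbtb20 (0.32, 0.116) and Msx1 (-0.29, 0.323), the most abundant of the list, did not pass. Among 5 pituicyte regulators 4 were tested and 1 rose, the T-box gene Tbx3 (0.35, 0.0490), while Rax (0.45, 0.152) and Lhx2 (0.30, 0.193) did not pass. Of 12 paralogs of the members 6 were tested, and Tbx3 was the one called.

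**Figure D5:**
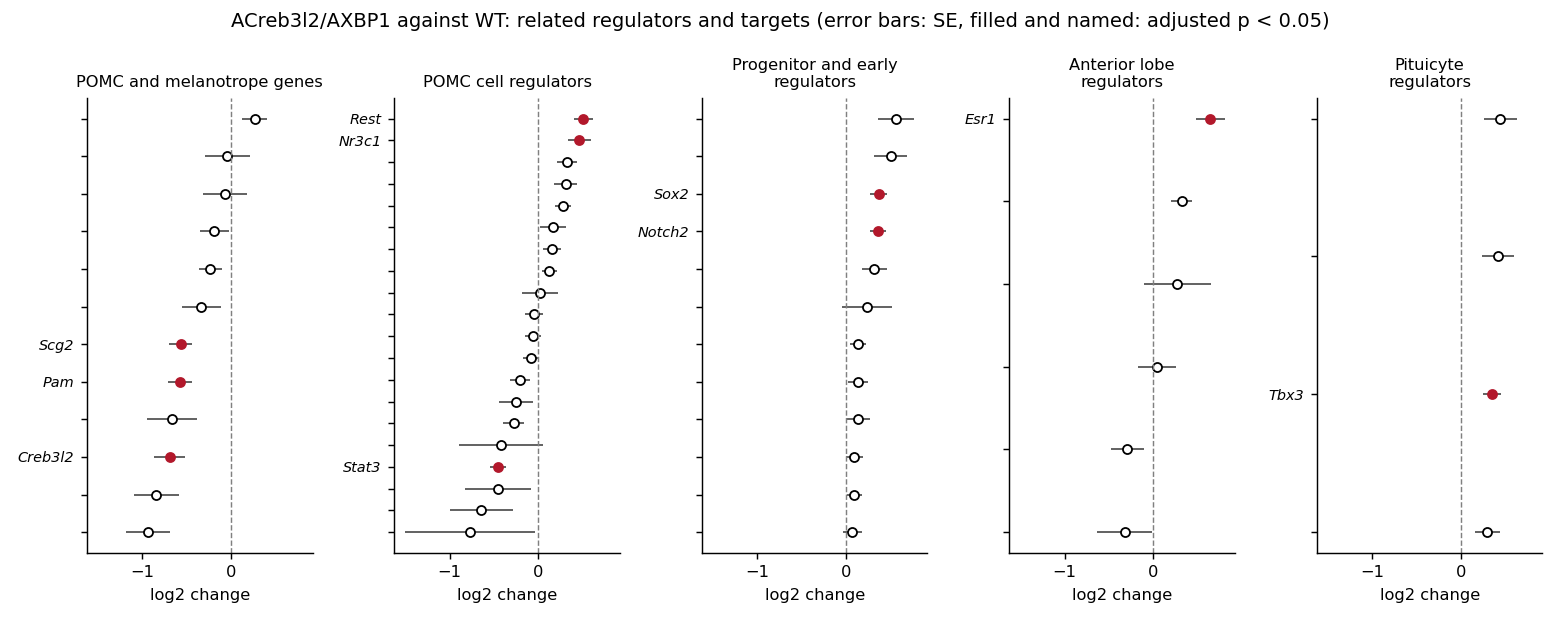
edgeR log2 changes in ACreb3l2/AXBP1 against WT of the tested genes of 5 lists, 1 gene per line (points with SE, filled and named where the adjusted p is under 0.05). In the list of POMC and melanotrope genes 11 of 12 points lie below 0, while all 12 progenitor genes lie above 0, most of them not called.

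These list counts moved with the processing. With the 2 compared groups alone in the fit, none of the genes of these lists was called in ACreb3l2/AXBP1 against WT, and without ACreb3l2/AXBP1 replicate 2 the called genes of all lists came to 1, among the POMC and melanotrope genes. Library size alone as the scaling moved the median of all genes from 0.012 to 0.17 in that comparison and turned the split of calls from 477 higher and 1089 lower to 1104 higher and 546 lower. Small differences, such as that of Six6, are therefore given as values without a direction.

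The genes whose pattern over the 8 libraries was most like that of each member were sought by the root mean square difference of log2 CPM after centring each gene on its mean. For Tbx19 these were Ica1 (0.0569), Tuba4a (0.0704) and Atp5d (0.0786), where the median of all tested genes was 0.404. All 3 were called lower in ACreb3l2/AXBP1 against WT, Ica1 by a log2 difference of -0.99 (edgeR adjusted p = 0.0195), as a likeness to Tbx19 largely requires. For Lhx3 they were Tom1 (0.0366), Scand1 (0.0390) and Pfn1 (0.0421), against a median of 0.253. For Pax7 they were D430040D24Rik (0.0576), Gli3 (0.0665) and Glipr2 (0.0677), and for Pitx1 Sbds (0.0477), Flywch1 (0.0595) and Prkar1b (0.0636). These likenesses are over 8 libraries that share depth and composition and are given as a description.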

How the data were processed

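RNA-seq was measured in 8 libraries of pooled neuro-intermediate lobes. Per the study's methods, the authors trimmed reads, mapped them with Tophat to mm10 and used HTSeq for the raw counts per Ensembl gene that they deposited unnormalized. The authors also deposited FPKM values. The study lists cufflinks among its software without tying it to these values, and their annotation is not given in the sources used here. The submitters' processing notes name GRCm38, HTSeq and DESeq. The labels state ribosomal depletion, whereas the methods describe a stranded mRNA kit. Of the identifiers with FPKM values, 51 were split over loci and summed.

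Totals were 28256086 to 37988912 counts. Genes with a mean median-ratio-normalized count above 20 (15580 of 48526) were fitted with edgeR 4.0.16 in R 4.3.3 (TMM factors 0.913 to 1.10, robust quasi-likelihood, 1 mean per group, all 8 libraries). Called means a Benjamini-Hochberg adjusted p under 0.05 over all tested genes. Normalized counts are scaled to the mean depth, with a prior count of 2 for log2 CPM. Alternatives were DESeq2 1.42.0, limma 3.58.1 on log2(FPKM + 0.1), other scalings, filters and dispersions, the compared groups alone, a replicate block, and each library left out. The script was tested on simulated data.

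Gene coordinates are those of GENCODE M21 on mm10. The members and lists were chosen with earlier results of these data known. Named were all 6 members, the paralogs, each list's genes called against WT, its 3 most abundant in WT, and the 3 patterns nearest to each tested member, some of which are not reported here. Other markers (endothelial, macrophage, fibroblast, progenitor, hypothalamic axon, erythroid, cycling) were summed per library.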

Additional observations from a re-analysis of the deposited data

How the results depend on the processing

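Tbx19 and Lhx3 stayed below 0 in ACreb3l2/AXBP1 against WT under all 19 alternatives, and their calls were lost under 4 and 8 of them. Leaving out each library in turn gave -1.21 to -0.63 for Tbx19 and -0.66 to -0.33 for Lhx3 there. The Tbx19 call was also lost with FPKM and no filter on low values (-0.91, limma adjusted p = 0.107). That of Lhx3 was also lost in the same fit (-0.50, limma adjusted p = 0.0593), with library size alone (-0.32, edgeR adjusted p = 0.0636) and with the 2 compared groups alone (-0.49, edgeR adjusted p = 0.0840). With no filter on low counts Tbx19 passed in ACreb3l2 (-0.43) and AXBP1 (-0.63), and with DESeq2 it passed in AXBP1 (-0.63). With no filter Tbx19 also passed in ACreb3l2/AXBP1 against ACreb3l2 (-0.46, edgeR adjusted p = 0.000621), as did Pitx1 in ACreb3l2 against AXBP1 (0.38, edgeR adjusted p = 0.0240). The cause of these changes was not tested. Depth limits Neurod1 and Lhx4, which had 4 to 19 counts per library.

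Replicate numbers are shared by the groups in the labels, and whether they pair samples is not given in the sources used here. The correlations of replicate deviations between groups ran from -0.197 to 0.0887, which cannot exclude a weak shared batch. The main fit used no pairing. With a replicate block the Lhx3 difference kept its size (-0.48) at an edgeR adjusted p of 0.0519, and the calls numbered 1113 in ACreb3l2/AXBP1 and 3 in AXBP1, each against WT, and 58 in ACreb3l2/AXBP1 against AXBP1.

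Counts of called genes moved more. For ACreb3l2 against WT they were 304 with library size alone, 755 with DESeq2, 1455 without the filter, 221 and 225 with FPKM (pseudocounts 0.1 and 1), 122 with FPKM and no filter, and 275 with the 2 groups alone. For AXBP1 against WT they were 79 with DESeq2, 628 without the filter, 1 and 4 with FPKM, 10 with FPKM and no filter, and 2 with the 2 groups alone. For ACreb3l2/AXBP1 against WT they were 3209 without the filter, 889 and 901 with FPKM, 297 with FPKM and no filter, and 654 with the 2 groups alone. Between ACreb3l2 and AXBP1 they were 260 with DESeq2, 730 without the filter, 11 and 12 with FPKM, and 22 with FPKM and no filter. For ACreb3l2/AXBP1 against AXBP1 they were 55 with library size alone, 287 with DESeq2, 755 without the filter, 20 and 19 with FPKM, and 7 with FPKM and no filter. For ACreb3l2/AXBP1 against ACreb3l2 they were 41 with DESeq2, 513 without the filter, 1 with filterByExpr, and 7 with FPKM and no filter. For the interaction they were 4 with DESeq2, 126 without the filter, and 16 with FPKM and no filter. Leaving out 1 library gave 153 to 618, 0 to 9 and 218 to 2084 calls for ACreb3l2, AXBP1 and ACreb3l2/AXBP1 against WT, 18 to 152 between ACreb3l2 and AXBP1, 7 to 155 and 0 to 11 for ACreb3l2/AXBP1 against AXBP1 and ACreb3l2, and 0 to 2 for the interaction.

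Several small differences that had not been called changed sign. With library size alone the log2 difference of Pax7 became 0.0557 in ACreb3l2 and 0.0845 in ACreb3l2/AXBP1 against WT, and 0.0288 between these 2 groups, that of Pitx1 became 0.0358 in ACreb3l2/AXBP1 against WT, and that of Lhx3 became 0.00106 between ACreb3l2 and AXBP1. With FPKM at either pseudocount, or without the filter, Pax7 was at -0.13 in AXBP1 against WT, at 0.0807, 0.0797 and 0.0807 between ACreb3l2 and AXBP1, and at 0.00203, 0.00211 and 0.00203 for the interaction. In the same fits Lhx3 was at 0.18 between ACreb3l2 and AXBP1 and at 0.0611, 0.0607 and 0.0611 for the interaction. Lhx4, fitted with FPKM only without the filter, was at -0.21 in AXBP1 against WT and 0.29 between ACreb3l2 and AXBP1. Leaving out 1 library gave Pax7 from -0.29 to 0.20, from -0.0473 to 0.20 and from -0.30 to 0.11 in ACreb3l2, AXBP1 and ACreb3l2/AXBP1 against WT. It gave Pax7 from -0.36 to 0.13 and Lhx3 from -0.0507 to 0.0281 between ACreb3l2 and AXBP1. For ACreb3l2/AXBP1 against AXBP1 it gave Tbx19 from -0.59 to 0.00372, Pax7 from -0.37 to 0.0441 and Pitx1 from -0.0655 to 0.16, and for ACreb3l2/AXBP1 against ACreb3l2 Pax7 from -0.27 to 0.22. For the interaction it gave Tbx19 from -0.16 to 0.44, Pax7 from -0.35 to 0.15, Pitx1 from -0.30 to 0.0197 and Lhx3 from -0.23 to 0.12.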

Other observations

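Markers of the remaining cell types of the lobe were present in all libraries, with no marker of these lists at 0 in all of them. In WT the summed levels, in CPM, were 137 to 171 for 7 endothelial markers, 411 to 454 for 7 macrophage and microglial markers, 798 to 1039 for 8 fibroblast and pericyte markers, 382 to 814 for 4 erythroid markers and 11.6 to 15.9 for 4 cycling markers. In ACreb3l2/AXBP1 they were 197 to 235, 389 to 462, 1042 to 1220, 480 to 557 and 16.2 to 16.6 in the same order. The endothelial, fibroblast and cycling sums were higher than in both WT libraries, and the macrophage and erythroid sums overlapped those of WT. The 6 progenitor markers summed to 332 to 360 in WT and to at most 294 in ACreb3l2/AXBP1, with 2 of the 4 tested above 0 and 2 below. Sox2 rose (0.37, edgeR adjusted p = 0.0354), Sox9 differed by 0.14 (0.506), and Krt8, the most abundant of the 4, by -0.82 (0.0672), from 6936 to 3927 mean normalized counts. The neurohypophysial hormones Avp and Oxt, whose RNA reaches the lobe in hypothalamic axons, summed to 117 to 127 in WT and 103 to 135 in ACreb3l2/AXBP1.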
